A study of Mus musculus with 90 samples.

Results

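Wild-type (WT) livers on caloric restriction were followed from ZT16, when the mice had been fed, to ZT0, when the night ended, by comparing the 3 libraries titled CR_ZT0_WT with the 3 titled CR_ZT16_WT. These are 6 of the 90 samples of the series, chosen by their labels alone, and each library holds polyA RNA from the whole liver of an adult male C57BL/6J mouse. WT mice carried floxed alleles of Nr3c1, the glucocorticoid receptor gene (genotype GRfl/fl), without Cre. They received chow in amounts lowered step by step over weeks to 40% fewer calories, given when the lights went off. ZT (zeitgeber time) counts hours from lights on, so that ZT16 fell 4 h into the night and ZT0 at its end, and the mice of each time point were different animals. Other groups of the series served for comparison. The 3 WT libraries at ZT20 on the same diet lie between the time points, and 3 GRLKO libraries at ZT16 and 3 at ZT0 on the same diet lack the receptor in hepatocytes through Alb-Cre. The third comparison used 4 WT libraries at ZT16 and 3 at ZT0 on the control diet, labelled Night Restricted Feeding, in which mice ate without limit throughout and had food at night alone in the last week. No label names a batch, but in the time series the library IDs of each diet form a separate run of numbers, read here as a separate batch. The level of a gene on one diet and on the other therefore cannot be told apart from batch, whereas changes over time were measured within each diet.

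Liver after a meal takes up glucose, refills glycogen and makes fatty acids and proteins under insulin, and between meals it exports glucose, oxidises fatty acids and makes ketone bodies under glucagon, glucocorticoids and FoxO transcription factors. The circadian clock of hepatocytes, a feedback loop in which BMAL1 and CLOCK drive their own repressors Per and Cry as well as Nr1d1, runs beside this feeding rhythm and is set partly by the hour of food. Protein folding factors of the cytosol and endoplasmic reticulum (ER) follow temperature and secretory load.

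The total count was 19135928, 14235473 and 17549564 in replicates 1 to 3 at ZT16 and 20595065, 18414682 and 17486867 at ZT0. At ZT20 it ran from 16719469 to 17874383, in GRLKO from 16180253 to 17926250 and on the control diet from 11772344 to 17089004. Nr3c1 stood at 77.4, 94.4 and 95.3 CPM (counts scaled to a common library total) at ZT16 and at 80.9, 70.5 and 82.0 CPM at ZT0 in WT. In GRLKO it lay between 21.6 and 25.9 CPM, under every WT library. Genes encoded by mitochondrial DNA took 12.3, 12.6 and 14.1% of counts at ZT16 against 11.7, 10.7 and 11.2% at ZT0. The 10 most abundant genes took 24.6, 25.7 and 25.5% at ZT16 against 22.1, 21.5 and 21.5% at ZT0. Both shares were higher in every ZT16 library, and with either group of genes left out the number of genes passing the test was 4078 and 4080, beside 4088 with all genes.

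Markers of liver cell types were read next, since fewer cells of a type and less RNA per cell cannot be told apart in whole liver. Among 7 hepatocyte markers Apoa1 and Serpina1c rose and Alb fell, and Alb, the most abundant, stood at 113120, 119970 and 113210 CPM at ZT16 and 91331, 92300 and 91472 CPM at ZT0. Their sum was 135120, 141170 and 137290 CPM against 116590, 119070 and 120180 CPM. Of 9 Kupffer and myeloid markers Cd5l and Lyz2 rose, with sums of 129.95, 174 and 166 CPM at ZT16 and 201, 168 and 219 CPM at ZT0, and Clec4f was the most abundant at means of 40.7 and 44.6 CPM. Of 7 endothelial markers Oit3 rose, with sums of 173, 206 and 180.3 CPM against 205, 205 and 239.9 CPM and Clec4g the most abundant at 44.3 and 51 CPM. Colec11, Ecm1 and Col1a1 rose among 7 stellate markers, whose sums were 289.7, 389 and 305 CPM against 379.95, 400.3 and 352 CPM. Dcn, the most abundant of these, had means of 158.31 and 158.27 CPM. Spp1 rose among 4 cholangiocyte markers tested, with sums of 33.3, 38.6 and 36.5 CPM against 44.1, 44.4 and 58.6 CPM, while Epcam was at 0 in all 6 libraries. Cd79a rose among 2 lymphocyte markers tested, from at most 0.0587 CPM to at most 1.21 CPM, and Ptprc, the most abundant, had means of 5.80 and 6.43 CPM. Summed lymphocyte markers stood at 3.96, 6.65 and 7.99 CPM against 8.24, 7.46 and 10.4 CPM. Erythrocyte markers summed to 789.7, 343 and 344 CPM at ZT16 and 314, 1246 and 406 CPM at ZT0, high in 1 mouse of each group, with Hbb-bs the most abundant at 269.7 and 296 CPM and Alas2 the called gene among 6. Neutrophil markers summed to at most 1.29 CPM and adipocyte markers to at most 0.106 CPM, with Plin1, Cfd and Lep at 0. Exocrine pancreas markers summed to 0.189, 0.267 and 0 CPM at ZT16 and 0.596, 1.30 and 0.691 CPM at ZT0, and 7 of the 10 were at 0. S100a9, Adipoq and Cela2a were the most abundant genes of these last lists, at means of at most 0.594, 0.0353 and 0.734 CPM, and too few counts were present for any test. The part that such cells played in the results was not tested.

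The passage moved a large share of the liver transcriptome in both directions. Of 12028 genes tested, 4088 (34%) had an adjusted p under 0.05 in the edgeR quasi-likelihood test with Benjamini-Hochberg adjustment, and such genes are termed called. At ZT0 1925 genes (16%) were higher and 2163 (18%) lower, and the median log2 fold change over all tested genes was 0.0047. The counts of called genes in each list below are to be read beside these shares of all tested genes. Called genes more than 2-fold apart numbered 1044 and those more than 4-fold apart 239. When the test asked for more than a 1.2-fold difference, 2309 genes passed, 1049 higher and 1260 lower. The 3 ZT0 values lay wholly above or below the 3 ZT16 values in 6099 genes (50.7%). Log2 fold changes are ZT0 over ZT16 with their standard error (SE) and rest on 3 libraries at each time point, and "fell" or "rose" is written of called genes only.

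**Figure D1:**
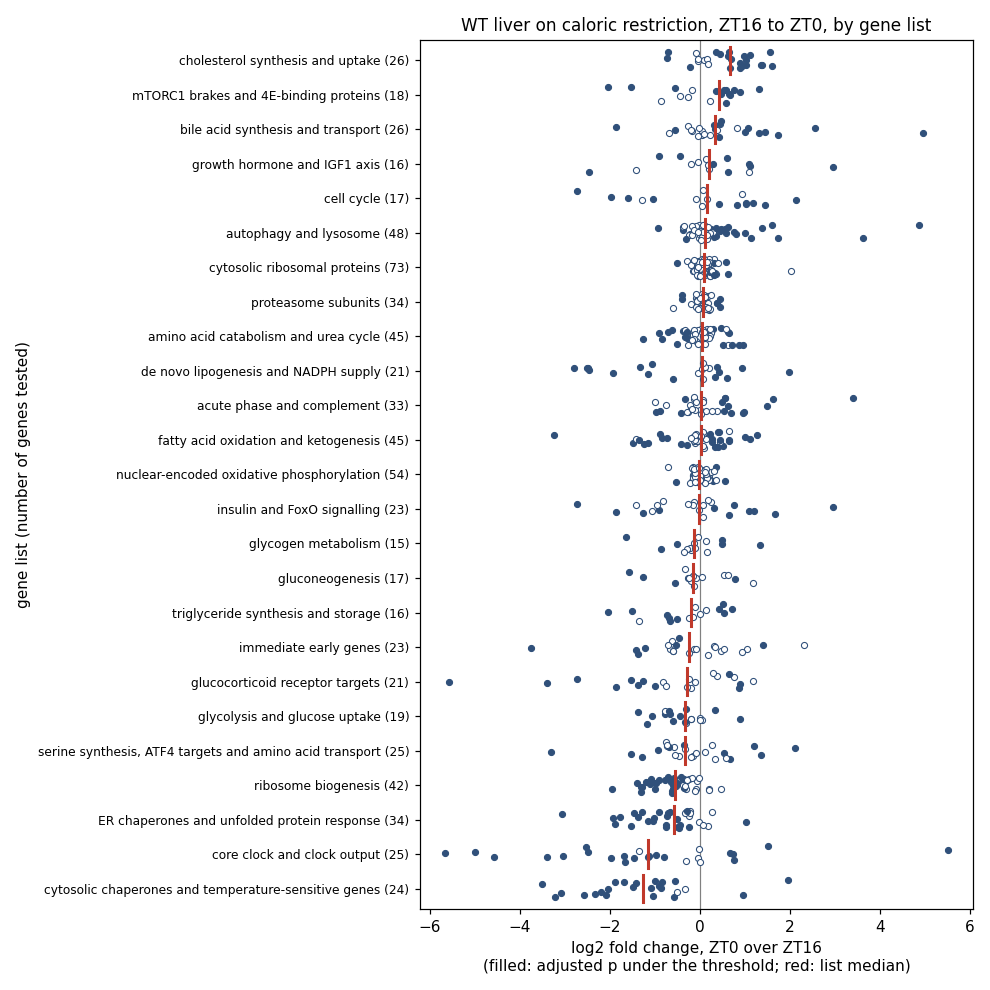
Log2 fold change from ZT16 to ZT0 (horizontal axis) of every tested gene of 25 gene lists (vertical axis, with the number tested) in 6 WT livers on caloric restriction; filled points passed the test and the red bar is the list median. The cytosolic chaperone list has the lowest median at -1.25 and the cholesterol list the highest at 0.66.

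Clock genes moved in both directions, with more that fell. All 25 genes of the clock and its output were tested, of which 15 fell and 5 rose, and their median log2 fold change was -1.16. Per2, which encodes a repressor of BMAL1 and CLOCK, was read at 113, 108 and 121 CPM at ZT16 and at 2.39, 4.83 and 3.63 CPM at ZT0. The groups were far apart, and the difference of 31.5-fold gave a log2 fold change of -4.99 ± 0.21 (SE), lower in 3 of 3 mice, with an adjusted p of 0.000149 (edgeR quasi-likelihood test, Benjamini-Hochberg adjustment). Cry1, its partner in repression, stood at 41.7, 50 and 46.0 CPM and then at 13.6, 13.4 and 16.9 CPM. These groups did not overlap either, and the log2 fold change was -1.66 ± 0.12. Ciart, a further repressor of BMAL1 and CLOCK, went from 11.4, 7.73 and 11.2 CPM to 0.144, 0.107 and 0.345 CPM, and no fold is given for so few counts at ZT0. Nr1d1, which encodes the haem receptor REV-ERBα that represses Arntl, moved the other way, from 0.953, 1.21 and 1.07 CPM to 47.6, 64.8 and 34.5 CPM. Every ZT0 mouse was above every ZT16 mouse, with a log2 fold change of 5.51 ± 0.29 and an adjusted p of 0.000154 in the same edgeR quasi-likelihood test with Benjamini-Hochberg adjustment. Arntl itself, the gene of BMAL1, read 25.6, 33.8 and 23.5 CPM against 22.6, 27.3 and 31.3 CPM and did not pass. Dbp, a PAR bZIP factor driven by the clock, was at most 1.03 CPM in any of the 6 mice, and its difference did not pass the test either.

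Other members of the loop followed with smaller or similar steps. Per1 and Per3 fell by 3.39 and 3.04 on the log2 scale, Usp2, a deubiquitinase under clock control, fell by 4.57, and the repressors Bhlhe40 and Bhlhe41 fell, at -2.54 and -2.48. Nampt, the rate-limiting enzyme of NAD salvage, fell by 1.47, and Clock fell by 1.16. Nr1d2, the paralog of Nr1d1, rose by 1.52 ± 0.18 and the D-box repressor Nfil3 by 0.74 ± 0.10. Npas2, a partner of BMAL1 like CLOCK, rose from 5.77, 7.46 and 6.93 CPM to 13.3, 9.03 and 11.6 CPM. The 2 groups did not overlap, but its call was lost without ZT0 replicate 1 or 3, where the adjusted p of the edgeR quasi-likelihood test with Benjamini-Hochberg adjustment reached 0.0538, with higher values in 3 of 3 ZT0 mice and a log2 fold change of 0.75 ± 0.18. A single fit of all 18 WT libraries of the diet also left Npas2 uncalled. Over the 6 time points of this diet the WT mean of Nr1d1 was highest at ZT4 (179 CPM), that of Per2 at ZT16 (114 CPM) and that of Ciart at ZT8 (47.8 CPM), so the ZT0 values of Nr1d1 lay on its way up.

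**Figure D2:**
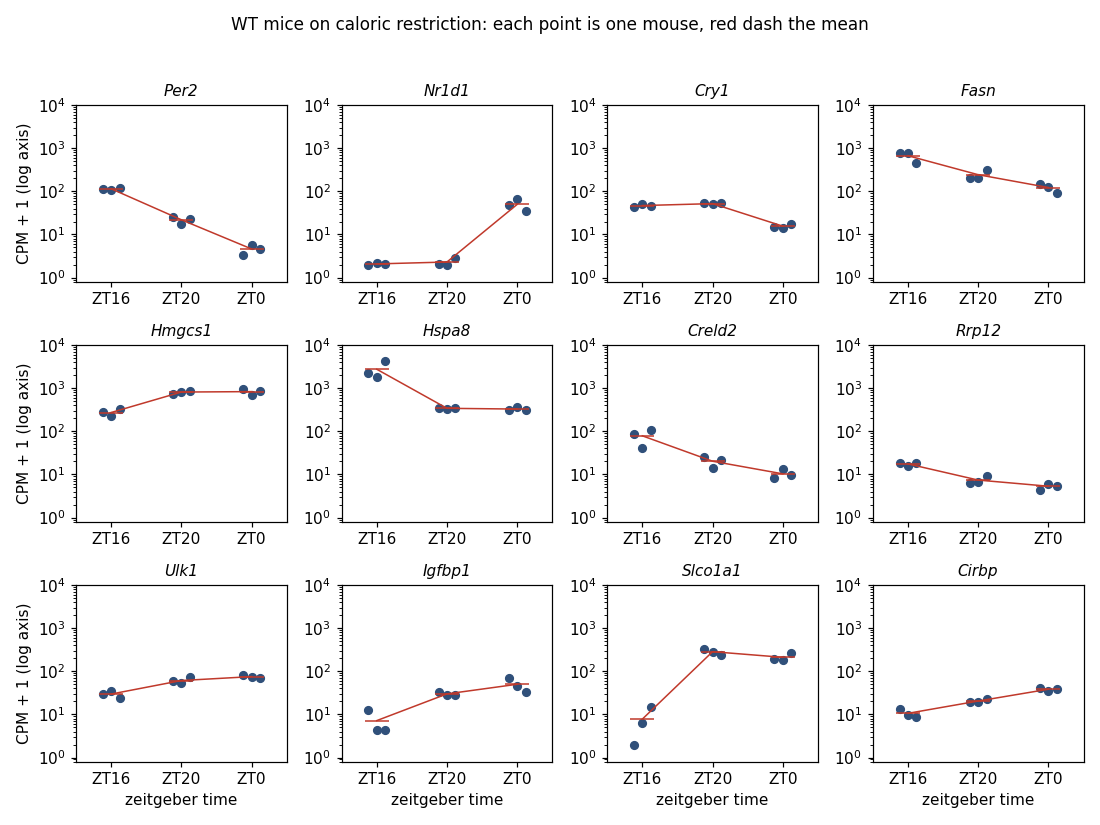
Level of 12 genes in WT livers on caloric restriction at ZT16, ZT20 and ZT0 (horizontal axis) in CPM plus a pseudocount of 1 on a log axis; each point is a mouse, 3 per time, and the red dash is the mean. Hspa8 and Slco1a1 had moved by ZT20, whereas Nr1d1 and Cry1 moved between ZT20 and ZT0.

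Lipogenic genes moved in both directions. The list of fatty acid synthesis and NADPH supply counted 9 genes that fell and 6 that rose among 21 tested, with a median of 0.04. Fasn, which encodes fatty acid synthase, was at 791, 766 and 454 CPM at ZT16 and at 151, 124 and 90.9 CPM at ZT0. The lowest ZT16 mouse stood well above the highest ZT0 mouse, and the log2 fold change was -2.46 ± 0.26, a 5.50-fold difference. Elovl6, the elongase of palmitate, went from 465, 699 and 367 CPM to 109, 91.5 and 70.6 CPM, again without overlap, at -2.502 ± 0.26. Srebf1, the transcription factor gene that mediates the insulin signal to lipogenesis, went from 439, 475 and 341 CPM to 168, 178 and 157 CPM. All 3 of its ZT0 values were lower, with a log2 fold change of -1.32 ± 0.13 and an adjusted p of 0.000625 (edgeR quasi-likelihood test, Benjamini-Hochberg adjustment). Pnpla3, Thrsp, Mid1ip1 and Acaca, each lipogenic or a helper of acetyl-CoA carboxylase, fell, at -2.80, -2.48, -1.92 and -1.15 on the log2 scale. Among those that rose were Acss2, which makes acetyl-CoA from acetate, by 1.98 ± 0.13, the fatty acid elongase Elovl5 by 0.95 ± 0.12 and malic enzyme Me1 by 0.61 ± 0.16. Acly, ATP citrate lyase, read 585, 533 and 465 CPM and then 436, 281 and 341 CPM, lower in 3 of 3 mice at -0.59 ± 0.16. Its call was lost without ZT0 replicate 2 or 3 or ZT16 replicate 1 or 2, with adjusted p values of up to 0.0909 in the edgeR quasi-likelihood test with Benjamini-Hochberg adjustment.

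Glycolytic genes fell more often than they rose, 10 against 2 of 19 tested, with a median of -0.32. Pklr, liver pyruvate kinase, stood at 268, 384 and 301 CPM and then at 168, 145 and 146 CPM. The groups did not overlap, and the log2 fold change was -1.06 ± 0.14. Tpi1, triose phosphate isomerase, went from 62.1, 37.0 and 26.3 CPM to 13.7, 10.3 and 24.7 CPM, with the nearest values of the groups close together. It lost its call in the fit of all 18 WT libraries on the diet and without ZT0 replicate 1 or 2 or ZT16 replicate 1 or 2, in the latter at adjusted p values of up to 0.104 (edgeR quasi-likelihood test, Benjamini-Hochberg adjustment; log2 fold change -1.37 ± 0.39, lower in 3 of 3 mice). Gpi1, Eno1 and Khk, which handle hexoses or their products, fell by 0.77, 0.67 and 0.60. Pdk4, the kinase that shuts pyruvate dehydrogenase, rose from 28.3, 31 and 25.7 CPM to 69.6, 44.8 and 43.6 CPM, a log2 fold change of 0.89 ± 0.19, and its relative Pdk2 rose by 0.34 ± 0.08.

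Of 17 gluconeogenic genes tested 4 fell and 1 rose with edgeR, against 7 that fell with DESeq2, and the median was -0.16. With edgeR 18% of all tested genes fell and 16% rose. Pck1, the enzyme that commits oxaloacetate to glucose, read 636, 565 and 237 CPM at ZT16 and 1205, 1421 and 621 CPM at ZT0. The lowest ZT0 mouse overlapped the ZT16 range, and the log2 fold change of 1.17 ± 0.41 did not pass. Pck1 was called without ZT0 replicate 3 (log2 fold change 1.45, adjusted p = 0.0396, edgeR quasi-likelihood test, Benjamini-Hochberg adjustment, higher in 2 of 2 mice) and in the fit of all 18 WT libraries on the diet. G6pc, glucose-6-phosphatase, read 376, 431 and 374 CPM against 499.5, 307 and 280 CPM and overlapped, though without ZT0 replicate 1 it was called lower (log2 fold change -0.42, adjusted p = 0.0348, edgeR quasi-likelihood test, Benjamini-Hochberg adjustment, 2 of 2 mice). Ppargc1a, the coactivator of the fasting programme, read 9.75, 7.88 and 11.9 CPM against 13.5, 17.8 and 12 CPM and was called in the fit of all 18 WT libraries alone (log2 fold change 0.55, adjusted p = 0.0355, edgeR quasi-likelihood test, Benjamini-Hochberg adjustment, higher in 3 of 3 mice). Slc37a4, the transporter that brings glucose 6-phosphate to that phosphatase, had the largest change of the list, from 287, 272 and 284 CPM to 81.2, 106 and 95.5 CPM. Its log2 fold change was -1.58 ± 0.11 with tight groups and an adjusted p of 0.000243 by the edgeR quasi-likelihood test with Benjamini-Hochberg adjustment, lower in 3 of 3 mice. Pcx, pyruvate carboxylase, rose by 0.77 ± 0.21.

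In glycogen metabolism 3 genes rose and 3 fell of 15 tested, beside 16% and 18% of all tested genes, with a median of -0.13. Gys2, liver glycogen synthase, stood at 156, 170 and 179.8 CPM and then at 94.1, 95.2 and 89.7 CPM. Ppp1r3b, the subunit that brings protein phosphatase to glycogen and activates the synthase, went from 413, 457 and 387 CPM to 151, 114 and 139 CPM. Both pairs of groups were apart, at log2 fold changes of -0.87 ± 0.08 and -1.64 ± 0.12. Ppp1r3c, a related subunit, read 135, 195 and 186 CPM against 150.3, 110.4 and 165 CPM, overlapping, and was not called. Phka2, the liver regulatory subunit of phosphorylase kinase, rose by 1.33 ± 0.12, its catalytic subunit Phkg2 by 0.49 ± 0.08 and the lysosomal glucosidase Gaa by 0.49 ± 0.11. Gbe1, the branching enzyme, fell by 0.51.

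Genes of insulin and FoxO signalling rose in 7 and fell in 4 of 23 tested, with a median of -0.03. Igfbp1, a secreted binder of IGF1 that insulin represses, was at 11.8, 3.26 and 3.46 CPM at ZT16 and at 69.7, 45.7 and 31.8 CPM at ZT0. Irs2, the insulin receptor substrate that is itself repressed by insulin, went from 19.9, 13.6 and 18 CPM to 36.7, 44.9 and 29.1 CPM. No ZT16 mouse reached the ZT0 range for either gene, and the log2 fold changes were 2.96 ± 0.52 and 1.10 ± 0.19. Over the 6 time points the WT mean of Igfbp1 was highest at ZT12 (353 CPM), as was that of Pck1 (7446 CPM), and the lowest mean of each was that of ZT16. Cdkn1a, the p21 inhibitor of cyclin-dependent kinases, went down instead, from 28.1, 28.5 and 20.3 CPM to 2.49, 6.78 and 2.43 CPM, lower in 3 of 3 mice. Enho, Trib3 and Sesn1 rose by 1.68 ± 0.37, 1.19 ± 0.21 and 0.64 ± 0.10, while Pik3r1, a regulatory subunit of phosphoinositide 3-kinase, fell by 1.25.

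Fatty acid oxidation showed 14 genes that rose and 10 that fell among 45 tested, with a median of 0.03. Cpt1a, which carries out the committed step of mitochondrial fatty acid entry, stood at 155, 149 and 165 CPM and then at 324, 345 and 357 CPM. Each ZT0 mouse had more than any ZT16 mouse, with a log2 fold change of 1.12 ± 0.08 and an adjusted p of 0.000248 (edgeR quasi-likelihood test with Benjamini-Hochberg adjustment). Bdh1, which interconverts the ketone bodies, rose by 1.01 ± 0.10. Cyp4a14, an omega-hydroxylase under PPARα, fell from 1508, 1511 and 1724 CPM to 849, 1113 and 909.6 CPM, at -0.73 ± 0.12, without overlap. Angptl4, a secreted inhibitor of lipoprotein lipase, rose from 25.3, 32.8 and 24.6 CPM to 48.1, 37.3 and 44.7 CPM. The 2 sets were apart, with a log2 fold change of 0.65 ± 0.14. Acot3, an acyl-CoA thioesterase, had the largest change of the list, from 144, 186 and 151 CPM to 13.02, 22.3 and 16.1 CPM, 9.36-fold lower. Acot1, Acot2 and Acot4 fell by 1.16, 1.25 and 1.34, and counts of these near-identical neighbours can be split among one another and are uncertain, as are those of the Cyp4a genes. Among 16 tested genes of triglyceride synthesis and storage 6 fell and 4 rose, with a median of -0.20. G0s2, the inhibitor of the lipase ATGL, fell from 76.3, 138 and 90.4 CPM to 25.1, 15.1 and 34.2 CPM, and Mgll, monoglyceride lipase, fell by 1.4999. Pnpla2, the gene of ATGL, rose by 0.53 ± 0.17. Lpin1, a phosphatidate phosphatase, read 13.2, 79.6 and 5.69 CPM against 34.9, 17.5 and 38.9 CPM, spread too widely for any direction, and without ZT16 replicate 2 its log2 fold change became 1.68 with an adjusted p of 0.0366 (edgeR quasi-likelihood test, Benjamini-Hochberg adjustment, higher in 3 of 3 mice).

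Of 26 genes of cholesterol synthesis and uptake 17 rose, 3 fell and 6 were not called, with a median of 0.66. Hmgcs1, the cytosolic synthase at the entrance of the pathway, was at 273, 223 and 322 CPM at ZT16 and at 973, 685 and 843 CPM at ZT0. The groups were apart at a log2 fold change of 1.61 ± 0.17. Idi1, isopentenyl diphosphate isomerase, went from 200.2, 203 and 346 CPM to 599.6, 437 and 489 CPM, also apart, at 1.02 ± 0.23. Mvk, Nsdhl, Msmo1 and Fdft1 rose by 1.38 ± 0.11, 1.57 ± 0.19, 1.36 ± 0.22 and 1.04 ± 0.15, and Scap, the escort of SREBP proteins, by 1.10 ± 0.12. Sqle, squalene epoxidase, read 126, 108 and 150.2 CPM against 129, 113 and 124 CPM and overlapped. Insig1, which holds SCAP in the ER, fell from 762, 784 and 717 CPM to 425, 461 and 512 CPM, at -0.70 ± 0.09.

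Bile acid genes rose in 12 and fell in 2 of 26 tested, with a median of 0.33. Cyp7a1, the rate-limiting enzyme of bile acid synthesis, read 457, 351 and 556 CPM against 203, 383 and 261 CPM, which overlapped, and did not pass. Without ZT0 replicate 2 Cyp7a1 was called (log2 fold change -0.98, adjusted p = 0.01935, edgeR quasi-likelihood test, Benjamini-Hochberg adjustment, lower in 2 of 2 mice). Cyp8b1, which sets the share of cholic acid, rose from 314, 242 and 203 CPM to 388, 614 and 894 CPM. Without ZT16 replicate 3 the adjusted p of Cyp8b1 was 0.0514 in the edgeR quasi-likelihood test with Benjamini-Hochberg adjustment (log2 fold change with all libraries 1.32 ± 0.30, higher in 3 of 3 mice), and in a fit of all 18 WT libraries it was 0.0614. Abcg5 and Abcg8, which together form the sterol exporter, rose by 1.73 ± 0.19 and 2.56 ± 0.19. Slco1a1, an organic anion transporter of male liver, had the largest change of the list, from 0.937, 5.20 and 14.2 CPM to 187, 185 and 258 CPM, at 4.95 ± 0.70, where the ZT16 mice were widely spread and the size is uncertain. Slc51b, a bile acid exporter of the sinusoidal side, fell by 1.86, and Nr1h4, the bile acid receptor FXR, fell by 0.55.

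Of 45 tested genes of amino acid breakdown 8 rose and 10 fell, close to the 16% and 18% of all tested genes, with a median of 0.05. Tat, tyrosine aminotransferase, went from 2525, 2068 and 1708 CPM to 926, 1036 and 675 CPM, without overlap, at -1.26 ± 0.19. Sds, serine dehydratase, read 89.9, 72.0 and 36.7 CPM against 101, 118 and 88.0 CPM and Cps1, the entry enzyme of the urea cycle, 7079, 6560.5 and 9077 CPM against 5466, 7133 and 6439 CPM. Neither passed, and both had overlapping groups. Slc25a15, the ornithine carrier, and Asl, argininosuccinate lyase, fell by 0.90 and 0.84, and Agxt, which detoxifies glyoxylate, rose by 0.97 ± 0.15. Among 25 tested genes of serine synthesis, ATF4 targets and amino acid transport 6 fell and 5 rose, with a median of -0.34. Asns, asparagine synthetase, was at 65.9, 21.9 and 105 CPM and then at 13.5, 3.49 and 2.19 CPM, high and scattered at ZT16 and low in all 3 ZT0 mice, at -3.31 ± 0.76. Ddit4, an inhibitor of mTORC1, fell from 20, 12.4 and 12 CPM to 3.74, 4.89 and 6.96 CPM. Chac1, a glutathione-degrading enzyme, and Slc7a2, a carrier of arginine, rose by 2.11 ± 0.52 and 1.35 ± 0.12. Psat1, a key gene of the list, was at most 3.58 CPM and was not tested.

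Targets of the glucocorticoid receptor fell in 8 and rose in 3 of 21 tested, with a median of -0.28. Tsc22d3, the gene of the mediator GILZ, was at 172, 167 and 148 CPM at ZT16 and at 42.9, 41.2 and 50.2 CPM at ZT0. Fkbp5, a co-chaperone that restrains the receptor, was at 75.8, 86.8 and 63.2 CPM and then at 29.5, 49.3 and 34.4 CPM. The groups of both were apart, at log2 fold changes of -1.87 ± 0.10 and -1.003 ± 0.20. In GRLKO, without the receptor in hepatocytes, mean Tsc22d3 went from 133.7 to 40.8 CPM and mean Fkbp5 from 24.2 to 17.7 CPM. There 7 of 20 tested genes of the list fell and 5 rose, with a median of -0.32. The part of the hepatocyte receptor in these changes was not tested. Sult1e1, estrogen sulfotransferase, had the largest change, from 12.7, 6.19 and 2.23 CPM to 0, 0.322 and 0.115 CPM. Dusp1, a phosphatase of MAP kinases, fell by 1.38, while Klf9 rose by 0.87 ± 0.15. Nr3c1 itself, given with the libraries, was not called.

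Of 34 tested chaperones of the ER and genes of the unfolded protein response 24 fell, 9 were not called and 1, Crebrf, rose by 1.03 ± 0.25, and the median was -0.58. Hspa5, the gene of the chaperone BiP, was at 1443, 793 and 1606 CPM at ZT16 and at 316, 469 and 344 CPM at ZT0. Creld2, an ER stress-inducible factor, went from 84.4, 40.1 and 109 CPM to 7.33, 12.1 and 8.59 CPM, the largest change of the list. For both genes the lowest ZT16 mouse was replicate 2, which still exceeded all ZT0 mice, and the log2 fold changes were -1.77 ± 0.27 and -3.07 ± 0.38. Sdf2l1, an ER protein of the same programme, read 36.0, 14.2 and 38.3 CPM and then 8.73, 10.1 and 12.2 CPM. Its call was lost without ZT0 replicate 1 or ZT16 replicate 3, at an adjusted p of up to 0.0565 (edgeR quasi-likelihood test, Benjamini-Hochberg adjustment; log2 fold change -1.53 ± 0.35, lower in 3 of 3 mice). Xbp1, a transcription factor gene of the unfolded protein response, fell from 185, 176 and 208 CPM to 142, 129.5 and 138 CPM, a smaller step of -0.48 ± 0.09. Hyou1, Manf, Syvn1 and Hsp90b1 fell by 1.93, 1.88, 1.37 and 1.03.

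Cytosolic chaperones fell most of all lists by their median of -1.25, in 20 of 24 tested genes. Hspa8, the constitutive HSP70, was at 2282, 1777 and 4210 CPM at ZT16 and at 314, 362 and 306 CPM at ZT0. Each ZT0 mouse lay far under the ZT16 mice, with a log2 fold change of -3.08 ± 0.31 and an adjusted p of 0.000715 (edgeR quasi-likelihood test with Benjamini-Hochberg adjustment). Hsph1, a nucleotide exchange factor for HSP70, had the largest change, from 38.9, 24.3 and 59.9 CPM to 3.65, 7.13 and 0 CPM. It was not called by DESeq2 (adjusted p = 0.0977) or without ZT0 replicate 1 by the edgeR quasi-likelihood test with Benjamini-Hochberg adjustment (adjusted p = 0.0526), at a log2 fold change of -3.50 ± 0.80 with lower values in 3 of 3 mice. Hsp90aa1, Hspa4l, Hspb1, Dnaja1 and Stip1, which work with HSP70 or HSP90, fell, at -3.23, -2.58, -2.34, -2.09 and -1.88. Hspa1b fell by 2.21, but counts of this gene can be split with its near-identical copy Hspa1a and are uncertain. Cirbp, an RNA-binding protein that rises when cells are cooled, was 1 of the 2 genes that rose. It went from 12.4, 8.70 and 7.70 CPM to 40.8, 33.2 and 38.1 CPM, apart in all mice, at 1.95 ± 0.18. Hspb6, a small heat shock protein, rose by 0.97 ± 0.19.

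Ribosome biogenesis fell in 28 of 42 tested genes and the other 14 were not called, with a median of -0.55. Rrp12, a factor of pre-rRNA processing and export, had the largest change, from 17.4, 14.7 and 17.7 CPM to 3.40, 5.16 and 4.43 CPM, at -1.95 ± 0.17. Nop56, a box C/D snoRNP protein, went from 31.8, 34.2 and 41.1 CPM to 17.1, 21.3 and 15 CPM, and Rrs1, an assembly factor of the large subunit, from 13.9, 16 and 16.5 CPM to 10.7, 10.4 and 9.83 CPM. None of the 3 genes had overlapping groups, and the latter changes were -1.01 ± 0.15 and -0.59 ± 0.10. Tsr1, Nop2, Heatr1 and Polr1a, the large subunit of RNA polymerase I, fell, at -1.40, -1.31, -1.31 and -1.199.

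The ribosomal proteins themselves, 73 of them tested, rose in 6 and fell in 1, with a median of 0.08, and DESeq2 called 8 higher. Both shares lay under the 16% and 18% of all tested genes. Rpl30 rose from 68.8, 96.5 and 66.4 CPM to 96.9, 137 and 122 CPM, with the nearest values of the groups almost touching. Its call was lost without ZT0 replicate 2 or 3 or ZT16 replicate 1 or 3, at adjusted p values of up to 0.105 (edgeR quasi-likelihood test with Benjamini-Hochberg adjustment; log2 fold change 0.62 ± 0.18, higher in 3 of 3 mice). Of 34 proteasome subunits 4 rose and 2 fell, with a median of 0.07, and Psme1, a subunit of the PA28 activator, rose from 48.1, 48.9 and 44.5 CPM to 69.2, 64.7 and 60.5 CPM. Of 54 nuclear-encoded genes of oxidative phosphorylation 3 rose and 1 fell, against 5 that rose with DESeq2, with a median of -0.02. Ndufa10, a complex I subunit, rose from 20.7, 13.9 and 17 CPM to 24.7, 24.4 and 27.2 CPM but was not called in the fit of all 18 WT libraries on the diet or without ZT0 replicate 1 or 3 or ZT16 replicate 3, where in the latter the adjusted p of the edgeR quasi-likelihood test with Benjamini-Hochberg adjustment reached 0.0684 (log2 fold change 0.55 ± 0.14, higher in 3 of 3 mice). Cycs, cytochrome c, fell by 0.53.

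Autophagy and lysosome genes rose in 19 of 48 tested and fell in 3, with a median of 0.12. Ulk1, the kinase that starts autophagy, was at 29.3, 33.9 and 22.7 CPM at ZT16 and at 80.1, 72.7 and 70.2 CPM at ZT0. Depp1, a FoxO target linked to autophagy, had the largest change, from 5.40, 3.48 and 0.646 CPM to 62.2, 144 and 77.5 CPM. The lowest ZT0 mouse was above the highest ZT16 mouse for both, at 1.37 ± 0.14 and 4.87 ± 0.59. Fbxo32, the ubiquitin ligase atrogin, rose by 3.62 ± 0.33, Wipi1 by 1.74 ± 0.21, Gabarapl1 by 1.60 ± 0.14 and Pik3c3, the lipid kinase of autophagosome formation, by 1.13 ± 0.10. Sqstm1, the cargo receptor p62, stood at 342, 313 and 289.6 CPM and then at 352, 416 and 406 CPM. Its small difference of 0.31 ± 0.10, higher in 3 of 3 mice, was not called without the filter on low counts, nor without ZT0 replicate 2 or 3 or ZT16 replicate 2 or 3, in the latter with an adjusted p of up to 0.128 (edgeR quasi-likelihood test, Benjamini-Hochberg adjustment). Among 18 tested brakes of mTORC1 and 4E-binding proteins 10 rose and 3 fell, with a median of 0.42. Flcn, Pdcd4, Tsc1 and Deptor, which restrain growth signalling or translation, rose by 1.31 ± 0.12, 0.90 ± 0.10, 0.75 ± 0.10 and 0.57 ± 0.09. Eif4ebp3, a binder of the cap protein eIF4E, went down from 50, 59.3 and 77.6 CPM to 10.5, 21.6 and 13.4 CPM, the largest change of the list at -2.05 ± 0.28.

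Immediate early genes fell in 6 and rose in 1 of 23 tested, with a median of -0.24. Of all tested genes 18% fell and 16% rose. Atf3 fell from 7.79, 5.25 and 9.16 CPM to 0.431, 1.181 and 0 CPM, at -3.76 ± 0.72, though a fit of all 18 WT libraries left it uncalled (adjusted p = 0.0799, edgeR quasi-likelihood test with Benjamini-Hochberg adjustment, lower in 3 of 3 mice). Junb was the gene that rose, by 1.41 ± 0.34. In the growth hormone and IGF1 axis 6 of 16 tested rose and 3 fell, with a median of 0.20. Igf1, the hormone gene, fell from 636, 722 and 717 CPM to 511, 519 and 492 CPM, at -0.45 ± 0.08 without overlap. Stat5b, which carries the growth hormone signal, rose by 1.08 ± 0.09 and Onecut1 fell by 2.47. Cish, a target of STAT5, read 13.1, 15.1 and 14.3 CPM against 23.2, 18.5 and 6.68 CPM and overlapped, but was called without ZT0 replicate 3 (log2 fold change 0.56, adjusted p = 0.0297, edgeR quasi-likelihood test, Benjamini-Hochberg adjustment, higher in 2 of 2 mice). Acute phase and complement genes rose in 10 and fell in 4 of 33 tested, with a median of 0.03, and C8a, a component of the complement pore, rose from 110, 86.5 and 211 CPM to 365, 397 and 493 CPM. Saa2 and Saa1, the serum amyloids, rose by 3.40 ± 0.79 and 1.49 ± 0.29, and fibrinogen genes Fga, Fgb and Fgg by 0.53 ± 0.09, 0.56 ± 0.08 and 0.68 ± 0.09. Of 17 tested cell cycle genes 7 rose and 4 fell, with a median of 0.15. Rrm2, a subunit of ribonucleotide reductase, fell from 7.69, 5.47 and 5.54 CPM to 3.61, 2.85 and 2.70 CPM, whereas Mcm7, Mcm3 and Mcm4 of the replicative helicase rose by 1.19 ± 0.16, 1.03 ± 0.32 and 1.01 ± 0.22.

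Among called genes with a mean of at least 5 CPM at either time and no overlap between the groups, Gm19680, E2f6, Gm16867, Hsd3b5 and Elovl3 rose most. Gm19680, a predicted gene, was at 0 in all ZT16 mice and at 8.76, 10 and 6.23 CPM at ZT0. E2f6, a repressor of the E2F family, was likewise at 0 and then at 5.10, 4.23 and 6.19 CPM, and it was at 0 in all WT mice at ZT20 and in all GRLKO mice at ZT16 and ZT0. With the ZT16 libraries set to a floor of 3 counts each, Gm19680 was higher by at least 45.6-fold, E2f6 by at least 28.3-fold. A whole group at 0 may also come from how reads were assigned to transcripts, which was not tested, so these bounds are uncertain. Gm16867, a predicted gene, read 0, 0 and 0.0587 CPM against 7.70, 3.07 and 8.04 CPM. Hsd3b5, a steroid dehydrogenase of male liver, went from 0.212, 0.0710 and 0.294 CPM to 23.6, 21.2 and 75.7 CPM, and Elovl3, a fatty acid elongase, from 0, 0 and 2.30 CPM to 59.2, 34.5 and 110.2 CPM. That all ZT0 mice exceeded all ZT16 mice for these genes follows from how they were chosen and is no separate result.

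Cyp2b13, Lrrfip2, Ciart and Sult1e1 were among the genes that fell most. Cyp2b13, a cytochrome P450 of female liver, was at 4.60, 26 and 1.16 CPM and at 0 in all ZT0 mice, and no fold is given because a single ZT16 mouse carries the mean. The ZT16 mice of Cyp2b13 were widely spread, its counts can be split with Cyp2b9, and its call was lost without any of the 3 ZT0 libraries, at adjusted p values of up to 0.0576 (edgeR quasi-likelihood test, Benjamini-Hochberg adjustment). Lrrfip2 was at 5.32, 4.29 and 7.51 CPM and at 0 in all ZT0 mice, at least 35.9-fold lower against the floor of 3 counts per library, with the same doubt about the assignment of reads to transcripts.

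Because Hsd3b5, Elovl3, Slco1a1 and Cyp2b13 are known to differ between the sexes in mouse liver, further genes of this kind were read, chosen after these values were seen. Among further genes higher in male liver Serpina1e, Mup20, Cyp2d9 and Cyp7b1 rose, while Cyp4a12a and Ugt2b38 were not called. Serpina1e, a serine protease inhibitor, went from 38.3, 68.2 and 102 CPM to 667, 802 and 2121 CPM and Mup20, a urinary protein, from 260.4, 75.9 and 386 CPM to 1849, 1070 and 1996 CPM. Cyp2d9 went from 307, 241 and 326 CPM to 798, 675 and 1242 CPM. Groups were apart in each of these, while counts of Serpina1e, Mup20 and the P450 genes can be split among near-identical copies and are uncertain. Among further genes higher in female liver Cyp2b9 and Cyp2a4 fell, Cux2 and Cyp17a1 were not called, and Cyp3a41a, Sult3a1 and Hao2 had too few counts for the test. Cyp2b9 went from 469, 753 and 257 CPM to 26.2, 37.8 and 14.1 CPM, and Cyp2a4 from 33.9, 30.3 and 10 CPM to 3.06, 1.17 and 0.705 CPM. Cux2, a repressor found in female liver, read 15.1, 14.8 and 4.57 CPM against 3.71, 9.17 and 2.65 CPM. These mice were all male, and genes picked in this way are examples that cannot show how often sex-biased genes moved.

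The WT mice at ZT20 divide the night into steps that share mice with the whole passage, so their values stand beside it and give no separate support. From ZT16 to ZT20 2516 of 11924 tested genes (21.1%) were called, 1212 higher and 1304 lower, and from ZT20 to ZT0 434 of 11989 (3.62%), 163 higher and 271 lower. DESeq2 called 891 in the later step. Without ZT16 replicate 1 or 3 or any of the ZT20 replicates the earlier count fell to between 1322 and 1674, and without any single library the later one was between 61 and 161. Hspa8 had reached 351, 324 and 348 CPM by ZT20, close to its ZT0 values, and Slco1a1 337, 273 and 243 CPM. Ribosome biogenesis had a list median of -0.58 from ZT16 to ZT20, with 26 of 42 genes that fell, and a median of 0.01 from ZT20 to ZT0. Cholesterol genes rose in 19 of 26 in the earlier step, with medians of 0.90 and then -0.14. Chaperones of the ER spread over both steps, with 7 that fell in the earlier and 12 in the later one and medians of -0.14 and -0.41. Nr1d1 was still at 1.10, 1.01 and 1.79 CPM and Cry1 at 52.1, 49 and 51.9 CPM at ZT20, near their ZT16 values, so their log2 fold changes of 5.23 ± 0.31 and -1.80 ± 0.10 fell in the later step. Acly went up and then down, with 712, 878 and 771 CPM at ZT20 above all mice at ZT16 and ZT0. Lipogenic genes as a list had medians of 0.34 and then -0.57.

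**Figure D3:**
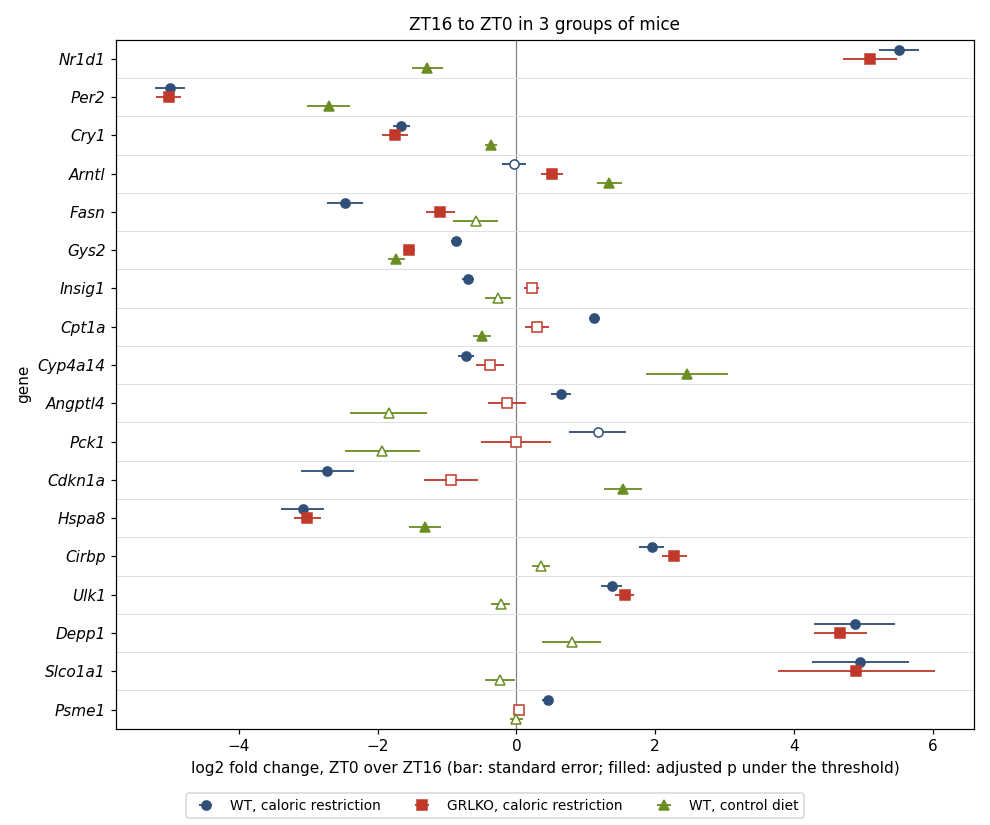
Log2 fold change from ZT16 to ZT0 (horizontal axis; bars are standard errors, filled symbols passed the test) of 18 genes in WT on caloric restriction (3 and 3 mice), GRLKO on caloric restriction (3 and 3) and WT on the control diet (4 at ZT16 and 3 at ZT0). Nr1d1 lies at 5.51 and 5.09 on caloric restriction and at -1.29 on the control diet.

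GRLKO mice, which lack the receptor in hepatocytes, were compared over the same hours. In their livers 4379 of 12117 tested genes (36.1%) were called. Of 11838 genes tested in both genotypes, 2861 were called in the same direction, which is 70.6% of the 4055 WT calls and 66.4% of the 4310 GRLKO calls, and 9 in opposite directions. The test of the difference between genotypes called 25 of 12502 genes (0.2%), with 1152 at an unadjusted p under 0.05. That count depended on tool and libraries, being 137 with DESeq2 and between 6 and 15 without WT ZT0 replicate 2 or 3, any WT ZT16 replicate, GRLKO ZT0 replicate 2 or 3 or GRLKO ZT16 replicate 3. With the replicate number as a block 2 genes were called, 0 of them with a more positive WT change. The positive differences of Gys2 and Gm19680 below were therefore not called with the block. Of the negative differences of Insig1, Rrm2, Npas2, mt-Nd3 and Ddx46 below, at most 2 kept their call with it. Gys2 fell less in WT than in GRLKO, where it went from 283, 257 and 235 CPM to 86.8, 89.8 and 89.6 CPM, a difference of log2 changes of 0.68 ± 0.11. Insig1 read 379.5, 446 and 440 CPM and then 426, 533 and 517 CPM in GRLKO. Its difference of -0.91 ± 0.15 was called with an adjusted p of 0.0361 (edgeR quasi-likelihood interaction test, Benjamini-Hochberg adjustment). In WT the level of Insig1 was lower in 3 of 3 mice at ZT0 than in any mouse at ZT16. Rrm2, Npas2 and mt-Nd3, a mitochondrially encoded complex I subunit, differed by -2.09 ± 0.30, -2.04 ± 0.25 and -2.25 ± 0.21. In WT mt-Nd3 read 1057, 1088 and 1259 CPM against 1064, 879 and 848 CPM, and in GRLKO 207, 241 and 158 CPM against 786, 859 and 717 CPM, where the ZT16 mice were low. The WT change of mt-Nd3 was not called by edgeR with all libraries but was by DESeq2 (adjusted p = 0.0338) and without ZT0 replicate 1 (log2 fold change -0.39, adjusted p = 0.0387, edgeR quasi-likelihood test, Benjamini-Hochberg adjustment, lower in 2 of 2 mice). Ddx46, a splicing helicase, was at 0 in all 3 GRLKO mice at ZT16 and at 41.7, 43.6 and 42 CPM at ZT0, while WT went from 29.1, 16.6 and 28.9 CPM to 43.8, 51.2 and 40.5 CPM. Whether its zeros are absent transcripts or reads assigned elsewhere was not tested. The WT rise of Ddx46 was itself lost without ZT0 replicate 2 (adjusted p = 0.0553, edgeR quasi-likelihood test with Benjamini-Hochberg adjustment, log2 fold change 0.85 ± 0.21 with all libraries, higher in 3 of 3 mice) and in a fit of all 18 WT libraries (adjusted p = 0.399). Gm19680 differed as well, having been at 2.21, 4.18 and 1.61 CPM in GRLKO at ZT16. Eif4ebp3 was at most 5.10 CPM in any GRLKO mouse of these hours, and Sult1e1, one of the receptor targets, at most 0.166 CPM. Sult1e1 was also low in WT on the control diet, at most 0.245 CPM at ZT16 and 0.353 CPM at ZT0. Tsc22d3, another receptor target, went from a mean of 133.7 to 40.8 CPM in GRLKO. Whether the low levels in GRLKO depend on the receptor was not tested.

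The control diet asks what the passage looks like when food is offered through the night. There 1471 of 11865 genes (12.4%) were called, 634 higher and 837 lower at ZT0. Without any single library other than ZT0 replicate 3 the count was between 681 and 880. With the replicate number as a block it was 176. Of 11641 genes tested on both diets 619 were called in the same direction, which is 15.4% of the 4015 calls on caloric restriction and 42.5% of the 1456 on the control diet, and 91 in opposite directions. The test of the difference between diets called 2335 of 12483 genes (18.7%), 1201 in which the change was more positive on caloric restriction and 1134 in which it was more negative, and 1516 without ZT16 replicate 3 of the restricted mice. With the replicate number as a block it called 1124. Nr1d1 had the opposite direction on the control diet, from 7.58, 12.3, 9.33 and 8.59 CPM to 3.72, 3.09 and 4.68 CPM. Its difference of log2 changes was 6.81 ± 0.38, with an adjusted p of 5.77e-06 in the edgeR quasi-likelihood interaction test with Benjamini-Hochberg adjustment and ZT0 values higher in 3 of 3 restricted and lower in 3 of 3 control mice. Per2 and Cry1 fell more on caloric restriction, by differences of -2.27 ± 0.41 and -1.28 ± 0.15, and Arntl, which rose on the control diet from 10.8, 12.5, 12.7 and 11 CPM to 28.3, 21.9 and 38.1 CPM, differed by -1.36 ± 0.28. Dbp fell on the control diet from 8.37, 12.7, 8.29 and 8.52 CPM to at most 0.511 CPM and differed by 3.09 ± 0.85, a size that is uncertain because its groups on caloric restriction were near 0 CPM.

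Genes of fasting metabolism also differed between the diets. Cpt1a fell on the control diet, from 302, 318, 255 and 252 CPM to 228, 169 and 197 CPM, against its rise on caloric restriction, a difference of 1.63 ± 0.16. Pck1 read 1001, 2368, 869.9 and 1642 CPM against 419, 137 and 587 CPM there and differed by 3.11 ± 0.77. Angptl4 differed by 2.497 ± 0.65, Fasn by -1.87 ± 0.47, Elovl6 by -1.29 ± 0.40, Tpi1 by -1.88 ± 0.48, Ppp1r3b by -1.39 ± 0.25, Ppp1r3c by -1.47 ± 0.41 and Gys2 by 0.88 ± 0.15. Cyp4a14 rose on the control diet from 52.8, 22.2, 4.997 and 15.8 CPM to 131, 112 and 150 CPM, and Cdkn1a from 5.48, 5.02, 2.67 and 4.18 CPM to 9.79, 10.8 and 16.6 CPM. Both had fallen on caloric restriction, and the differences were -3.18 ± 0.72 and -4.24 ± 0.52. Acot3, Asns and Sult1e1 differed by -1.79 ± 0.55, -3.01 ± 0.96 and -5.37 ± 1.59. Slco1a1, Hsd3b5, Elovl3 and C8a differed by 5.21 ± 0.77, 7.06 ± 1.13, 4.61 ± 1.15 and 1.78 ± 0.36. Sult1e1, Hsd3b5 and Elovl3 had a group near 0 CPM, so the sizes of their differences are uncertain. Fkbp5 fell more on the control diet, by a difference of 1.05 ± 0.23.

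By list, calls for a difference between the diets are given beside the 18.7% of all genes. Fatty acid oxidation had 15 of 47 genes with a more positive and 6 with a more negative change on caloric restriction, serine synthesis and ATF4 targets 6 and 6 of 26, bile acid genes 8 and 2 of 26, lipogenesis 2 and 6 of 21, and mTORC1 brakes 8 of 19 with a more positive one. Oxidative phosphorylation had 14 of 54 with a more positive and 1 with a more negative change. Cytosolic chaperones had 13 of 25 genes with a more negative and 3 with a more positive change on caloric restriction, among them Hspa8 at -1.75 ± 0.40 and Cirbp at 1.61 ± 0.23. Autophagy genes had 19 of 48 with a more positive and 1 with a more negative change, with Ulk1 at 1.61 ± 0.22 and Depp1 at 4.09 ± 0.81. Ulk1 on the control diet read 54.5, 69.1, 50.7 and 46.9 CPM against 48, 42.1 and 50.5 CPM. Ribosomal proteins had 22 of 75 with a more positive change, and ribosome biogenesis 12 of 42 with a more negative one, Rrp12 at -1.19 ± 0.22 among them. Of 35 ER chaperones 4 were more negative and 3 more positive, a share close to that of all genes, Hspa5 at -1.19 ± 0.38. Shares under the 18.7% of all genes stood in glycolysis, with 1 more positive and 1 more negative of 20, and in cholesterol genes, with 3 and 1 of 26. So did those of immediate early genes (0 and 1 of 23), cell cycle genes (2 and 1 of 22) and acute phase and complement genes (5 and 1 of 33). Psme1 differed by 0.46 ± 0.12 and Ddx46 by 0.83 ± 0.24. Gm10233, a predicted gene named by the size of its difference, read 12.1, 6.68 and 15.6 CPM against 5.53, 4.78 and 0 CPM on caloric restriction, where it was not called, and was at 0 in all 4 control mice at ZT16.

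Promoters of the chaperone and clock genes were read in the RefSeq table of GRCm38.p6, in windows of 250 bases before to 50 after each gene start, on both strands. Windows were found for 28 of the 35 ER chaperone genes, and 9 of these (32.1%) held the ER stress element, CCAAT and CCACG with 9 bases between, against 0.137% of 27025 genes with a window. They were Calr, Canx, Creld2, Derl3, Dnajc3, Hsp90b1, Hspa5, Pdia6 and Syvn1, of which Pdia6 was not called and Derl3 was not tested. Of 19 clock genes with a window 5 (26.3%) held the E-box CACGTG, against 8.09% of all genes, namely Bhlhe41, Ciart, Cry1, Per1 and Tef, all of which fell. Per3 alone in that list held the D-box TTATGTAA, found in 1.11% of all genes. The FoxO element GTAAACA stood in 2 of 19 genes with a window in the insulin and FoxO list (10.5%), namely Akt1 and Sesn1, against 4.05% of all genes. The E-box stood in 12 of 37 genes with a window in the autophagy list (32.4%). The E-box share of the clock list was no larger than that of the insulin and FoxO list, also 5 of 19 (26.3%), and in ER chaperones it was 17.9%. The heat shock element, GAA, TTC and GAA or TTC, GAA and TTC with 2 bases between, was searched after the chaperone values were seen. It stood in 4 of 20 genes with a window (20%) in the list of cytosolic chaperones and temperature-sensitive genes, against 0.662% of all, namely Chordc1, Hsph1 and the mitochondrial chaperonin genes Hspd1 and Hspe1. Windows of Hspd1 and Hspe1 overlap on opposite strands and their matches are the same bases, so that stretch is counted for both genes. A match is a stretch of letters and was not tested as a binding site.

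The 200 bases before the gene start are shown for 3 ER chaperones, 2 clock genes and a mitochondrial co-chaperone whose transcripts fell, as examples of windows that hold the motifs, which most genes of each list lacked. They come from chr2:34771890-34772089 (Hspa5, plus strand), chr15:88819446-88819645 (Creld2, plus), chr10:86705445-86705644 (Hsp90b1, minus), chr3:95882229-95882428 (Ciart, minus), chr4:151044666-151044865 (Per3, minus) and chr1:55087948-55088147 (Hspe1, plus). Capitals mark the ER stress element in the first 3, which reads on the opposite strand in Creld2 and Hsp90b1, then 3 E-boxes, the D-box and the heat shock element.
Hspa5: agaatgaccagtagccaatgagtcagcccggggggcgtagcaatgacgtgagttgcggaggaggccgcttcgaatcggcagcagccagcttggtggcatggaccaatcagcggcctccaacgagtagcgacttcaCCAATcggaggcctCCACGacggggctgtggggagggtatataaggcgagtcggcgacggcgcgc
Creld2: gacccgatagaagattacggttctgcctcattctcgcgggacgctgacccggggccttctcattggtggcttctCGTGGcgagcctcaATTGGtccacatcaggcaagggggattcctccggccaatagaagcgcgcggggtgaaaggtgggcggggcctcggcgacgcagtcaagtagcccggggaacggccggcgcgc
Hsp90b1: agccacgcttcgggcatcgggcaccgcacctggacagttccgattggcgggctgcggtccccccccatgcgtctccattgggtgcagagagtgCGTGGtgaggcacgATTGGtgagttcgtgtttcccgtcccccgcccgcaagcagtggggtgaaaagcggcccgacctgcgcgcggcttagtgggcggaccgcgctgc
Ciart: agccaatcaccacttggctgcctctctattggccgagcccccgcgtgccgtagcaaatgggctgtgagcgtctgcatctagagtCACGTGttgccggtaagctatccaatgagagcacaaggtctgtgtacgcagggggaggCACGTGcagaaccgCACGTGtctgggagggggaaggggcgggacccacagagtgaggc
Per3: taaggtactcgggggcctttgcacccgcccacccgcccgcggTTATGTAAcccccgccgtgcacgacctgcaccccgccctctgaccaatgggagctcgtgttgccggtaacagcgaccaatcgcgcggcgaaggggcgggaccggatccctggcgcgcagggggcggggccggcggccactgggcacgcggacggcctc
Hspe1: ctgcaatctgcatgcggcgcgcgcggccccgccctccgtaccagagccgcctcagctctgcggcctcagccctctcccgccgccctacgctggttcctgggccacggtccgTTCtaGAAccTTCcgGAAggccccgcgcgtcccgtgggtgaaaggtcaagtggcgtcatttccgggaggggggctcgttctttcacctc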

How the data were processed

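PolyA RNA libraries of whole liver were used as the estimated counts per gene that the authors deposited, made with Salmon and summed from transcripts to genes, without normalization. The submitters' processing notes name the build mm10, and the transcript annotation is not given in the sources used here. Of 27654 gene IDs 27244 were matched to a symbol, and the other 410 held 0.11% of counts. The other 18 per-sample columns of the series, from diet and corticosterone experiments at ZT12, were not used.

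Counts were rounded and tested in R 4.3.3 with edgeR 4.0.16 (TMM scaling, filterByExpr with a minimum count of 10, quasi-likelihood F test, Benjamini-Hochberg adjustment over all genes tested, called at an adjusted p under 0.05). DESeq2 1.42.0 was the alternative, and both were tested on simulated data. Levels are CPM with TMM factors over all 36 libraries of the caloric restriction table, or all 42 of the control diet table for control mice, whereas fold changes come from the scaling of each fit. Differences between genotypes and between diets are interaction terms. Other alternatives were no filter, RLE scaling, a replicate block, all 18 WT libraries in a single fit, a threshold on fold change, genes left out and libraries left out 1 at a time.

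Members and gene lists were chosen with earlier results of these data known. Named genes are the key genes of the 25 lists, the called gene of largest change in each list, the 5 that rose and the 5 that fell most without overlap, and the 5 largest of each interaction, all but the key genes with a mean of at least 5 CPM. They number 82, of which 81 were tested, and a few of them are not reported here. Markers of 10 cell types were read in the same libraries. Total counts are given with the libraries. Among WT libraries on caloric restriction at ZT16, ZT20 and ZT0 no replicates were near-copies, the smallest chi-square per degree of freedom being 13.06, and the other groups were not checked.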

Additional observations from a re-analysis of the deposited data

Results flagged for a closer look

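Named genes whose change from ZT16 to ZT0 differed between WT and GRLKO on caloric restriction by the interaction test are given as the WT change minus the GRLKO change. On the log2 scale they were Gys2 at 0.68, Insig1 at -0.91, mt-Nd3 at -2.25, Rrm2 at -2.09 and Npas2 at -2.04. For Gm19680 and Ddx46, which had a whole group at 0, the adjusted p of the edgeR quasi-likelihood interaction test with Benjamini-Hochberg adjustment was 0.0192 and 0.000194. With the replicate number as a block, which left 2 genes called, Gys2 and Gm19680 were not called. At most 2 of Insig1, mt-Nd3, Rrm2, Npas2 and Ddx46 kept their call with it. Whether the zeros of Gm19680 and Ddx46 depend on how reads were assigned to transcripts was not tested.

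Between the diets, the WT change on caloric restriction minus that on the control diet was called for further named genes. In metabolism it was Fasn at -1.87, Elovl6 at -1.29, Tpi1 at -1.88, Pck1 at 3.11, Gys2 at 0.88, Ppp1r3b at -1.39, Ppp1r3c at -1.47, Cpt1a at 1.63, Cyp4a14 at -3.18, Acot3 at -1.79, Angptl4 at 2.497 and Asns at -3.01. Clock genes were Arntl at -1.36, Per2 at -2.27, Cry1 at -1.28, Nr1d1 at 6.81 and Dbp at 3.09, the last of uncertain size because its groups on caloric restriction were near 0 CPM. Chaperones, autophagy and ribosome factors were Hspa5 at -1.19, Hspa8 at -1.75, Cirbp at 1.61, Ulk1 at 1.61, Depp1 at 4.09, Rrp12 at -1.19 and Psme1 at 0.46. The others were Cdkn1a at -4.24, Fkbp5 at 1.05, Sult1e1 at -5.37, Hsd3b5 at 7.06, Elovl3 at 4.61, Slco1a1 at 5.21, C8a at 1.78 and Ddx46 at 0.83, where Sult1e1, Hsd3b5 and Elovl3 had a group near 0 CPM and differences of uncertain size. By adjusted p alone (edgeR quasi-likelihood interaction test, Benjamini-Hochberg adjustment) they were Hsph1 at 0.0439, Gm19680 at 0.0113, Npas2 at 7.29e-05 and Gm10233 at 0.0358. Diet coincides with the library batch as read from the library IDs, and the part of batch in these differences was not tested.

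In WT at ZT16 on the control diet, the only group of 4 mice among those compared here, some named genes had 1 mouse far from the others, measured as its gap to the nearest mouse over the whole range. Chance alone gives such a gap in about 1 in 20 groups. Ppp1r3c had a gap of 0.907 (84.1, 80.3, 36.0 and 84.8 CPM), Lpin1 of 0.892 (29.8, 26.0, 107 and 20.5 CPM), Cish of 0.993 (3.74, 3.75, 39.6 and 3.50 CPM) and Rrs1 of 0.891 (16.9, 15.4, 29.5 and 16.6 CPM), each through replicate 3. Dbp had a gap of 0.948 (8.37, 12.7, 8.29 and 8.52 CPM) through replicate 2. Gm19680 had a gap of 0.858 (5.48, 4.93, 5.74 and 0 CPM) and Psme1 of 0.864 (62.2, 60.3, 62.1 and 74.5 CPM), both through replicate 4.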

How the results depend on the processing

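Each group holds 3 mice, or 4 for control ZT16, so single mice weigh heavily, and a gene that was not called may still differ. Whole liver cannot tell fewer cells of a type from less RNA per cell, and total counts of 14235473 to 20595065 leave genes of a few CPM uncertain. Of 65 called named genes 52 kept their call under every alternative and 11 lost it on leaving out 1 library.

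The 4088 genes called in WT on caloric restriction became 3834 with DESeq2, 3776 without a filter, 4081 with RLE scaling, 4444 in the fit of all 18 WT libraries and 2807 to 3440 without 1 library. Asking for more than a 1.2-fold difference left 2309, with 1049 higher and 1260 lower, a stricter threshold by construction. The counts by direction, and the DESeq2 counts of genes called the same way in the passage of WT and of GRLKO, caloric restriction (2795, with 2861 by edgeR) and called the same way in the passage of WT on caloric restriction and on control diet (755, with 619 by edgeR), were chosen after the data were seen.

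Leaving out 1 library means fewer samples by construction and gave 681 to 1063 genes beside 1471 on the control diet, 6 to 24 beside 25 for the genotype interaction, 1516 to 2449 beside 2335 for the diet interaction, 1322 to 2216 beside 2516 from ZT16 to ZT20 and 61 to 161 beside 434 from ZT20 to ZT0. DESeq2 gave 137 for the genotype interaction and 891 from ZT20 to ZT0, and the cause was not tested.

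With the replicate number as a block, 3212 genes were called in WT on caloric restriction, 3498 in GRLKO, 176 on the control diet, 2 for the genotype interaction and 1124 for the diet interaction, and the cause was not tested. In WT on caloric restriction same-numbered mice did not deviate together (correlations of -0.06, -0.01 and 0.04), nor did every mouse correlate best with its own number. Whether the numbers pair mice in GRLKO or on the control diet was not tested. With the block, Hsph1, Sqstm1, Tpi1 and Npas2 were not called. The block also turned Lpin1 to 0.70, and Pck1 was called with it (log2 fold change 1.21, adjusted p = 0.00434).

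Among uncalled named genes, log2 fold changes without 1 library ran from -0.42 (without ZT0 replicate 1) to 0.0347 (without ZT0 replicate 3) for G6pc and from -0.60 to 1.68 for Lpin1, which was 0.17 without ZT0 replicate 2. They ran from -0.18 to 0.058 for Sqle, from -0.15 to 0.14 for Arntl, which was 0.09 without ZT0 replicate 1, and from -0.16 to 0.56 for Cish. The cause was not tested. Of the uncalled named genes, Pck1, G6pc, Ppargc1a, Cyp7a1, Cish, Lpin1 and mt-Nd3 passed under at least 1 alternative. With DESeq2, called genes went from 4 to 7 lower in gluconeogenesis, from 1 to 0 lower among ribosomal proteins and from 3 to 5 higher in oxidative phosphorylation.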
